A study of Mus musculus with 30 samples.

Results

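The genes described here are 46 mouse genes of the endoplasmic reticulum (ER) secretory pathway and of the unfolded protein response. They were taken from a list of names of ER chaperones, translocon and signal peptidase subunits, oligosaccharyltransferase subunits, degradation factors and stress sensors. No measured value served as a criterion, although earlier results of these data were known when the list was chosen. All 46 had a row in the table of 11137 genes, which covers 30 libraries of sorted mammary epithelial cells, and all 46 passed the filter on low values over those libraries.

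The transcriptome was measured by QuantSeq 3′ mRNA sequencing, which reads the 3′ end of each transcript, in mouse mammary gland (MG) cells that FACS had separated into luminal and basal. K8imTmG mice (K8rtta:Tet-O-Cre with the Rosa mT/mG reporter) have intact Rank, the receptor of Rankl. K8iΔRank mice carry in addition a floxed Rank on both alleles, and all mice of both genotypes drank doxycycline at 1 mg per ml, by the labels from week 3 to week 8 of age. The rtTA follows the keratin 8 promoter, so that Cre acts in luminal cells and basal cells of K8iΔRank mice keep Rank, while the luminal cells sorted were the recombined, GFP+ ones. Parous mice had gone through pregnancy and a period of involution, whereas virgin mice of like age had not. By the paper, parous K8imTmG mice nursed their pups, while K8iΔRank mice failed to lactate and lost their litters at the start of lactation. Differences that involve parous K8iΔRank mice therefore cannot be told apart from this difference in lactation. Luminal libraries came from 3 virgin K8imTmG, 3 virgin K8iΔRank, 5 parous K8imTmG and 4 parous K8iΔRank mice. Basal libraries came from 3 virgin K8imTmG, 4 virgin K8iΔRank, 4 parous K8imTmG and 4 parous K8iΔRank mice. The 30 libraries come from 17 mice, and 13 mice gave both lineages.

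Proteins bound for secretion or for membranes enter the ER through the Sec61 channel, lose their signal peptide to signal peptidase and receive N-glycans from oligosaccharyltransferase. They then fold with the help of BiP (Hspa5), the lectins calnexin and calreticulin and the protein disulfide isomerases, and those that fail are drawn back to the cytosol for degradation. When unfolded protein gathers in the ER, the sensors Ire1 (Ern1), Atf6 and Perk (Eif2ak3) raise chaperone and degradation genes through Xbp1 and cleaved Atf6, and slow translation while favouring Atf4. Luminal alveolar cells of the MG are known for the large secretory load of milk protein synthesis, and basal cells for contraction.

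The DNA element through which Atf6 and Xbp1 act on chaperone genes is the ER stress element (ERSE), and it is shown here because only some members hold it. Promoter letters were not used to choose the members. The list names chaperone genes, however, so the share of members with the element is not independent of that choice. Promoter windows of 250 bases before to 50 bases after the start were taken from RefSeq (GRCm38.p6), and 38 of the 46 members were matched. Hyou1, Manf, Derl1, Atf6, Sec61a1, Ssr2, Spcs3 and Sec11c were not matched. The letters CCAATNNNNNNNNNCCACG were searched on both strands. They occurred in the windows of 8 members, Hspa5, Hsp90b1, Calr, Canx, Pdia6, Dnajc3, Creld2 and Syvn1, which is 21.1% of the 38. Among the table's matched genes 5 others held them, so that the share over its 8668 matched genes was 0.15%, and over all 32851 windows it was 0.119%. The elements of the 8 members ended between 26 and 194 bases before the start of the RefSeq window's gene. Starts differ between annotations, and the Hspa5 element and the nearer Hsp90b1 one lie inside the gene bounds of GENCODE vM39, which are used for the genes below. Below, each run is written 5′ to 3′ on the gene's strand, with the fixed letters of the element in capitals. Elements read on the opposite strand appear as CGTGG before ATTGG, and the coordinates are those of the unique match in GRCm39.
Hspa5, chr2:34662034-34662058, plus strand: tcaCCAATcggaggcctCCACGacg
Hsp90b1, farther copy, chr10:86541499-86541523, minus strand: agcCCAATcgcaaggagCCACGctt
Hsp90b1, nearer copy, chr10:86541394-86541418, minus strand: gtgCGTGGtgaggcacgATTGGtga
Calr, chr8:85573701-85573725, minus strand: acgCGTGGtcgaccctcATTGGccc
Canx, chr11:50216624-50216648, minus strand: tgaCCAATcaccacgctCCACGaag
Pdia6, chr12:17316489-17316513, plus strand: agaCCAATgaaaggcggCCACGgcg
Dnajc3, chr14:119175236-119175260, plus strand: caaCCAATcagcgccaaCCACGacc
Creld2, chr15:88703720-88703744, plus strand: tctCGTGGcgagcctcaATTGGtcc
Syvn1, chr19:6096559-6096583, plus strand: caaCCAATcggcggtagCCACGgga

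The related ERSE-II, ATTGGNCCACG, shares its CCACG letters with ERSE. It occurred in Herpud1 and Dnajb11, which is 5.26% of the 38 members beside 0.104% of the table's matched genes. The Xbp1 element UPRE, searched as TGACGTGG, whose CGTGG letters are the reverse strand of CCACG, occurred in 0 of the 38 windows and in 1.1% of the table's genes. The Atf4 element CARE, TGATGNAA, occurred in Herpud1 and Trib3, and in 2.75% of the table's genes, and its matches in the members overlapped none of another element. The Dnajb11 and Trib3 matches lay after the start. The Herpud1 window therefore held both kinds of element, as the next runs show. A match of letters is a description and does not show that a factor binds.
Herpud1, ERSE-II, chr8:95113002-95113018, plus strand: ctgATTGGgCCACGttg
Dnajb11, ERSE-II, chr16:22676599-22676615, plus strand: gcgATTGGcCCACGcct
Herpud1, CARE, chr8:95112942-95112955, plus strand: gggTTgCATCAgcc
Trib3, CARE, chr2:152185956-152185969, minus strand: ggtTTaCATCAgcc

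The deposited values are gene counts divided by a size factor for each library, and are called normalized counts here. The reads behind them could be recovered and ranged from 340445 to 3130419 per library, so that 1 read was worth between 0.381 and 5.43 normalized counts. The lineage labels held in all libraries, since the basal marker Krt5 lay between 2.46 and 17.7 in luminal and between 811 and 1463 in basal libraries. Tnfrsf11a (Rank) lay between 11.5 and 41.1 in luminal libraries labelled K8iΔRank and between 9.57 and 64.9 in those labelled K8imTmG. Reads of the 3′ end do not show a deletion of internal exons, so genotypes are those of the labels. Summed markers of 4 endothelial genes lay between 3.36 and 37.8 in luminal and between 43.8 and 683 in basal libraries. Fabp4, an adipocyte and endothelial gene, lay between 4.4 and 50.5 in luminal and between 111 and 2587 in basal libraries, and the 6 fibroblast genes summed to between 98.4 and 957 in luminal and between 550 and 1003 in basal libraries. The 3 leukocyte genes Cd68, Lyz2 and Cd74 summed to between 3.20 and 32.7 in luminal and between 39.7 and 136 in basal libraries. By the methods, cells with CD45 or CD31 on their surface, which mark leukocytes and endothelium, were removed in the sort. The part of other cells in the lineage differences was not tested, and in sorted bulk cells fewer cells of a type and less RNA per cell cannot be told apart.

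The libraries also fell apart in a way that no label gives. Clec2d, a C-type lectin gene that is no member, lay between 65.6 and 199 normalized counts in 14 libraries and between 0.641 and 8.68 in the other 16. The Clec2d-high libraries were shallower, with a median of 878946 reads against 2478110. In luminal cells all virgin K8imTmG and parous K8iΔRank libraries were Clec2d-low and all virgin K8iΔRank libraries Clec2d-high, while parous K8imTmG held 3 low and 2 high. In basal cells all K8imTmG libraries were Clec2d-high and all virgin K8iΔRank libraries Clec2d-low, while parous K8iΔRank held 2 of each. Genotype in virgin mice, in either lineage, and parity in luminal K8iΔRank therefore cannot be told apart from this split. Of the 13 mice with both lineages, 10 gave libraries on opposite sides of it.

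The first question was how the ER genes differ between luminal and basal cells. Of the 46 members, 19 (41.3%) were higher in luminal cells and 7 (15.2%) were lower there than in basal cells at a limma adjusted p below 0.05, where the difference is the mean of the 4 luminal groups minus the mean of the 4 basal groups. Over all 11133 genes tested, 28.7% were higher and 27.0% lower in luminal cells. The median difference of the members was 0.26 on the log2(normalized count + 1) scale, on which all differences are given, beside 0.04 for all genes. By role, all 3 genes of the Ire1 and Atf6 arms were higher in luminal cells, 3 of the 5 Perk arm genes were higher in basal cells, and none of the 5 BiP system and lectin chaperone genes passed.

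**Figure D1:**
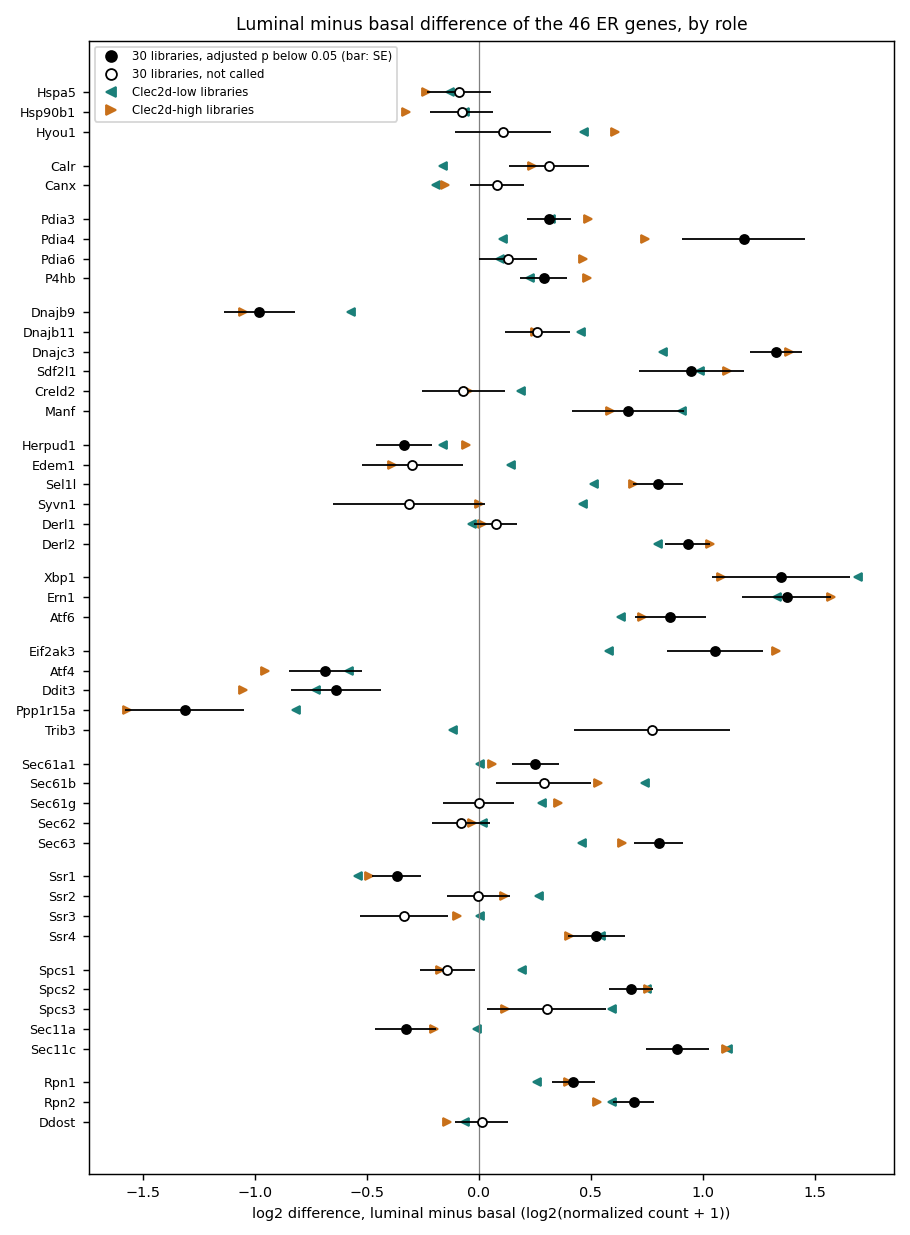
Luminal minus basal difference of each of the 46 members on the log2(normalized count + 1) scale, grouped by role from the BiP system at the top to oligosaccharyltransferase at the bottom. Circles with SE bars are the fit over 30 libraries, filled where the adjusted p was below 0.05. Triangles give luminal minus basal over the groups present among Clec2d-low and among Clec2d-high libraries. On each side the lineages also differ in genotype and stage. The 3 sensor and factor genes Xbp1, Ern1 and Atf6 lie to the right and Atf4, Ddit3 and Ppp1r15a to the left in all 3 estimates, whereas the difference of Pdia4 shrinks from 1.18 to 0.11 within Clec2d-low libraries.

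All 3 members that sense stress in the Ire1 and Atf6 arms or carry its signal were higher in luminal cells. Ern1, the kinase and endonuclease that splices Xbp1 mRNA (chr11:106283818-106378686, minus strand), ranged from 13.7 to 124 in luminal libraries with a median of 39.0, and from 12.6 to 28.7 in basal libraries with a median of 15.9. The ranges overlapped at their low end, luminal was higher in 12 of 13 mice, and the difference was 1.37 (SE 0.20, limma adjusted p = 8.31e-07). Xbp1, the transcription factor made from the spliced mRNA (chr11:5470606-5483027, plus strand), lay between 50.8 and 242 around a median of 120 in luminal libraries. In basal libraries it lay between 4.62 and 92.6 around a median of 58.8. The luminal library was the higher one in 12 of the 13 mice with both lineages, and the difference was 1.35 (SE 0.31, limma adjusted p = 4.54e-04). A 3′ tag counts spliced and unspliced Xbp1 alike. Atf6, the membrane-bound factor that is cut in the Golgi, differed by 0.85 (SE 0.16, limma adjusted p = 3.44e-05), with medians of 56.8 in luminal and 31.9 in basal libraries.

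The Perk arm was divided. Eif2ak3, which encodes the Perk kinase, was higher in luminal cells by 1.05 (SE 0.21, limma adjusted p = 1.20e-04). It was a low gene, with 6 of 15 basal libraries at or under the level of 3 reads. Of the 4 other Perk arm members, Atf4, Ppp1r15a and Ddit3 were higher in basal cells and Trib3 did not pass. Atf4, the factor whose translation Perk favours, ranged from 487 to 1261 in luminal libraries with a median of 870, and from 814 to 2457 in basal libraries with a median of 1382. The ranges overlapped, and basal was the higher library in 11 of 13 mice, with a difference of -0.69 (SE 0.16, limma adjusted p = 6.95e-04). Ppp1r15a, the phosphatase subunit that ends the translation block (chr7:45172340-45175692, minus strand), had a luminal range of 11.5 to 87.8 with a median of 47.7 and a basal range of 39.2 to 294 with a median of 109. Basal was higher in 12 of 13 mice, and the difference of -1.31 (SE 0.26, limma adjusted p = 1.08e-04) was the lowest of the 46. Ddit3, the stress factor Chop, had a luminal median of 28.2 with a range of 12.8 to 56.7 and a basal median of 40.2 with a range of 15.9 to 77.3, a difference of -0.64 (SE 0.20, limma adjusted p = 8.65e-03). Trib3, a pseudokinase induced by Chop, had a difference of 0.77 (SE 0.35), and luminal was the higher library in 10 of 13 mice. Of 8 immediate early and handling genes, which dissociation of tissue can induce, the medians of Egr1 (2305 and 4234), Junb (1027 and 2608), Jun (2717 and 3333) and Hspa1a (118 and 143) were lower in luminal than in basal libraries. Those of Atf3 (1462 and 892), Fosb (1356 and 1113) and Hspa1b (282 and 275) were higher in luminal libraries, and Fos had 2068 and 2104. Their sum ranged from 5826 to 17493 in luminal and from 8986 to 22918 in basal libraries, and their part in the difference was not tested.

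**Figure D2:**
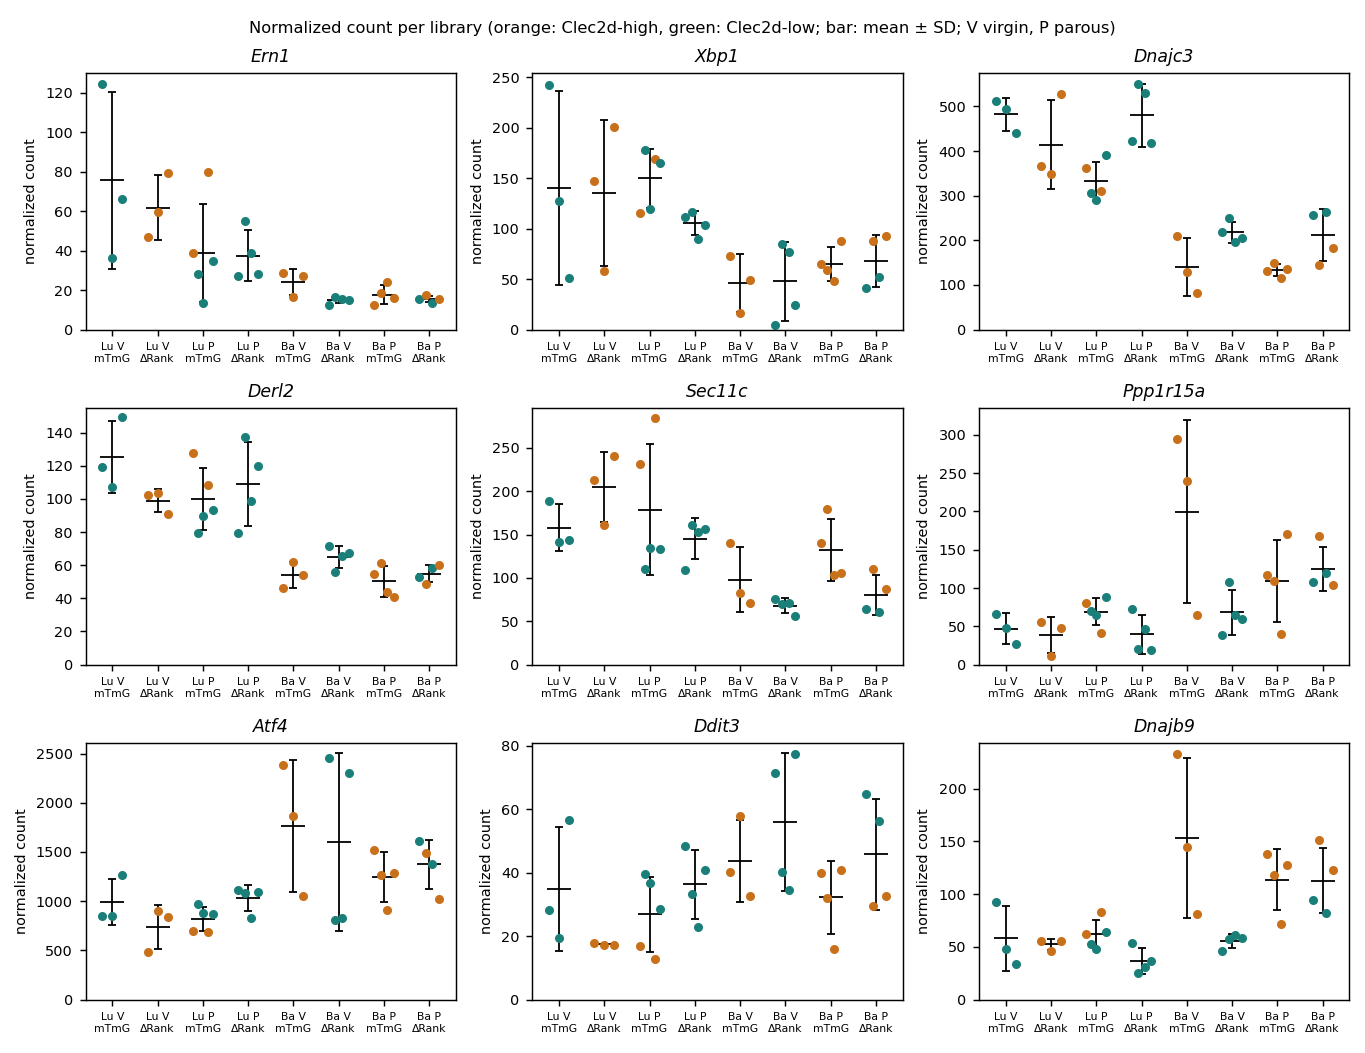
Normalized count (linear axis from 0) of 9 members in each library, by lineage (Lu, Ba), stage (V virgin, P parous) and genotype (mTmG for K8imTmG, ΔRank for K8iΔRank), with bars for the mean and SD of a group and colour for the side of the Clec2d split. Dnajc3 and Derl2 separate luminal from basal libraries with no overlap, Ern1, Xbp1 and Sec11c are mostly higher in luminal libraries, and Ppp1r15a, Atf4, Ddit3 and Dnajb9 are mostly higher in basal ones.

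Among the co-chaperones of BiP, those that were called split 3 against 1. Dnajc3 (p58IPK, chr14:119175317-119219115, plus strand), a J protein that delivers clients to BiP, ranged from 291 to 551 in luminal libraries with a median of 418. In basal libraries it ranged from 81.5 to 265 with a median of 183. No basal library reached the lowest luminal one, luminal was higher in 13 of 13 mice, and the difference was 1.32 (SE 0.12, limma adjusted p = 4.76e-11), the lowest p of the members. Sdf2l1, which keeps clients from aggregating with BiP, was low in both lineages. Its luminal range was 8.39 to 32.7 with a median of 16.0 and its basal range 3.19 to 29.4 with a median of 7.52, a difference of 0.95 (SE 0.24, limma adjusted p = 1.09e-03). Manf, a secreted ER stress protein, differed by 0.67 (SE 0.25, limma adjusted p = 0.0253). Dnajb9 (ERdj4, chr12:44252341-44257171, minus strand), the J protein that represses Ire1 through BiP, went the other way. It lay between 25.1 and 92.9 around a median of 52.8 in luminal libraries, and between 46.2 and 233 around a median of 94.4 in basal libraries. Basal was higher in 12 of 13 mice, with a difference of -0.98 (SE 0.16, limma adjusted p = 5.18e-06). Dnajb11 and Creld2 did not pass, with differences of 0.26 (SE 0.14) and -0.07 (SE 0.18).

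The main chaperones did not pass between the lineages. Hspa5, the Hsp70 of the ER (chr2:34661982-34668880, plus strand), ranged from 1055 to 2411 in luminal libraries with a median of 1778 and from 924 to 2627 in basal libraries with a median of 1862. The ranges lay over each other, and the difference was -0.09 (SE 0.14, limma adjusted p = 0.615). Hsp90b1 (Grp94) had a difference of -0.08 (SE 0.14), Hyou1 (Grp170), the exchange factor of BiP, 0.11 (SE 0.22), calreticulin (Calr) 0.31 (SE 0.18) and calnexin (Canx) 0.08 (SE 0.12). None of these 5 passed. Of the disulfide isomerases, Pdia3 (0.31, SE 0.10, limma adjusted p = 8.64e-03), P4hb (0.29, SE 0.10, limma adjusted p = 0.0201) and Pdia4 (1.18, SE 0.28, limma adjusted p = 5.97e-04) were higher in luminal cells and Pdia6 did not pass (0.13, SE 0.13). The Pdia4 difference was 0.11 within Clec2d-low and 0.74 within Clec2d-high libraries, and passed in neither.

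Of the 6 degradation genes, 2 were higher in luminal and 1 in basal cells. Sel1l, the scaffold of the Hrd1 ligase, differed by 0.80 (SE 0.11, limma adjusted p = 5.30e-07) and was higher in the luminal library of all 13 mice. Derl2, a channel protein of retrotranslocation (chr11:70896913-70910675, minus strand), ranged from 79.2 to 149 around a median of 104 in luminal libraries and from 41.0 to 71.6 around a median of 55.8 in basal libraries. These ranges did not overlap, and the difference was 0.93 (SE 0.10, limma adjusted p = 3.38e-09). Herpud1, which gathers Hrd1 complexes, had a luminal median of 172 with a range of 122 to 351 and a basal median of 232 with a range of 170 to 359. Its difference of -0.33 (SE 0.13, limma adjusted p = 0.0251) passed over all libraries but in neither side of the split. Edem1, the lectin that marks glycoproteins for removal, Syvn1, the Hrd1 ligase, and Derl1 had differences of -0.30 (SE 0.22), -0.31 (SE 0.34) and 0.07 (SE 0.10) and did not pass.

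In the machinery of entry and processing, 7 members were higher in luminal and 2 in basal cells, and 8 did not pass. Sec63, the J protein that pulls chains through the channel with BiP, differed by 0.80 (SE 0.11, limma adjusted p = 2.97e-07). Sec61a1, the pore subunit, differed by 0.25 (SE 0.11, limma adjusted p = 0.0432), whereas Sec61b, Sec61g and Sec62 did not pass. Of the translocon-associated Ssr proteins, which help some signal sequences to open the channel, Ssr4 was higher in luminal cells by 0.52 (SE 0.13, limma adjusted p = 8.36e-04). Ssr1 was lower, with a difference of -0.37 (SE 0.11, limma adjusted p = 5.74e-03), and Ssr2 and Ssr3 did not pass. The catalytic subunits of signal peptidase moved apart. Sec11c had a luminal median of 157 with a range of 110 to 284 and a basal median of 82.7 with a range of 55.8 to 179, a difference of 0.89 (SE 0.14, limma adjusted p = 4.09e-06). Its paralogue Sec11a had a difference of -0.33 (SE 0.14, limma adjusted p = 0.0437), with luminal and basal medians of 155 and 203. Of the other subunits of the enzyme, Spcs2 was higher in luminal cells by 0.68 (SE 0.10, limma adjusted p = 1.10e-06) and Spcs1 and Spcs3 did not pass. Of oligosaccharyltransferase, the ribophorin gene Rpn2 ranged from 176 to 347 around a median of 238 in luminal libraries and from 107 to 231 around a median of 157 in basal libraries. Luminal Rpn2 was the higher value in 13 of 13 mice, and the difference was 0.69 (SE 0.09, limma adjusted p = 2.71e-07). Rpn1 differed by 0.42 (SE 0.10, limma adjusted p = 5.08e-04), and Ddost, of the same complex, by 0.01 (SE 0.12), which did not pass.

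Members with and without an ERSE were set side by side for the lineage difference. Of the 8 with the element 1, Dnajc3, was called, against 21 of the 30 matched members without it (14 higher and 7 lower in luminal cells). Over all genes tested, 28.7% were higher and 27.0% lower in luminal cells. The median size of the difference, regardless of sign, was 0.11 for the 8 and 0.58 for the 30, beside 0.48 for all genes. No test was made of this contrast.

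The lineage differences were also taken on each side of the Clec2d split, an alternative chosen after the data had been seen. Among Clec2d-low libraries, luminal virgin K8imTmG, parous K8imTmG and parous K8iΔRank stand against basal K8iΔRank only. Among Clec2d-high libraries, luminal virgin K8iΔRank and parous K8imTmG stand against basal virgin K8imTmG, parous K8imTmG and parous K8iΔRank. Lineage is therefore mixed with genotype and stage on each side. Within the 16 Clec2d-low libraries 19 members were called (15 higher and 4 lower in luminal cells) beside 44.6% of all genes, and within the 14 Clec2d-high libraries 19 (14 higher and 5 lower) beside 36.2%. Of the 26 members called over all libraries, 14 were called with the same direction on both sides. Calls on both sides were not counted over all genes. Of these 14 members, Ern1, Xbp1, Dnajc3, Sel1l, Derl2, Pdia3, Sec63, Spcs2, Sec11c and Rpn2 were higher in luminal cells. Dnajb9, Ddit3, Ppp1r15a and Ssr1 were higher in basal cells. With the side as a term in the fit 24 members were called (19 higher and 5 lower) beside 51.8% of all genes. The calls of Manf, Herpud1, Sec61a1 and Sec11a were lost there.

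Within a single stage and genotype, taken from the same fit, the number of members called was 22 in virgin K8imTmG (45.1% of all genes), 21 in virgin K8iΔRank (39.0%), 11 in parous K8imTmG (36.2%) and 11 in parous K8iΔRank (29.7%). As a share of the 46 members these counts are 47.8%, 45.7%, 23.9% and 23.9%. Dnajc3, Derl2 and Ern1 were called in all 4. Of the 26 members called over all libraries, 21 kept their direction in all 4, which was not counted over all genes. In virgin mice side and lineage coincide, in opposite senses in the 2 genotypes. Hyou1 is an example, since luminal virgin libraries held 282, 147 and 80.2 in K8imTmG and 448, 590 and 478 in K8iΔRank, and basal virgin libraries 325, 442 and 288 in K8imTmG and 49.6, 185, 179 and 94.5 in K8iΔRank. Its higher values lay in the Clec2d-high libraries of either lineage.

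The second question was whether luminal loss of Rank changed the ER genes. In luminal cells, where Rank is targeted, 0 of 46 members passed in virgin mice, with 10 at an unadjusted p below 0.05, and 0.984% of all genes were called. DESeq2 and edgeR on the recovered reads called 3 and 0 members, and 648 and 138 of all 10066 genes. The members nearest to passing were Hyou1 (1.74, SE 0.40, limma adjusted p = 0.064) and Pdia4 (-1.16, SE 0.28, limma adjusted p = 0.0692). In parous luminal cells 0 of 46 passed, with 11 at an unadjusted p below 0.05, beside 0.0991% of all genes. There DESeq2 called 1 member and 611 of 10090 genes, and edgeR 0 members and 20 genes. Among Clec2d-low libraries alone, which leaves 3 K8imTmG and 4 K8iΔRank, 0 passed, with 9 at an unadjusted p below 0.05, and 0.416% of all genes were called. Xbp1 is an example of the spread behind these counts. It was 111, 117, 89.7 and 103 in the parous K8iΔRank libraries and 116, 178, 120, 169 and 165 in the parous K8imTmG ones, with only 1 K8iΔRank library above the lowest K8imTmG library.

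In basal cells, which keep Rank, 5 members were higher and 4 lower in virgin K8iΔRank than in virgin K8imTmG mice, out of 44 tested, beside 4.27% and 4.72% of all genes. Sdf2l1 and Eif2ak3 were under the filter in these 7 libraries. Pdia4, a disulfide isomerase (chr6:47770077-47790462, minus strand), was 21.5, 12.4 and 5.43 in K8imTmG and 66.9, 108, 65.7 and 50.5 in K8iΔRank, a difference of 2.51 (SE 0.45, limma adjusted p = 0.0126). The lower 2 of the K8imTmG values stand at or under the level of 3 reads, so the size of this difference rests on few reads. Sec61a1 was 271, 298 and 245 in K8imTmG and 467, 490, 462 and 549 in K8iΔRank (0.86, SE 0.18, limma adjusted p = 0.0226). Canx was 501, 508 and 364 in K8imTmG and 896, 791, 722 and 904 in K8iΔRank (0.86, SE 0.20, limma adjusted p = 0.032). In these 3 genes every K8iΔRank library lay above every K8imTmG one. The other members higher in K8iΔRank were Calr (1.19, SE 0.32, limma adjusted p = 0.0458) and Ssr1 (0.83, SE 0.20, limma adjusted p = 0.0355). Dnajb9 was 233, 145 and 81.5 in K8imTmG and 46.2, 57.1, 61.0 and 58.0 in K8iΔRank (-1.33, SE 0.34, limma adjusted p = 0.0385). Herpud1 was 294, 318 and 359 in K8imTmG and 170, 173, 183 and 232 in K8iΔRank (-0.78, SE 0.20, limma adjusted p = 0.0412). Hyou1, with the values given above, differed by -1.62 (SE 0.43, limma adjusted p = 0.0436) and Spcs1 by -0.86 (SE 0.23, limma adjusted p = 0.0474). Groups of Calr, Ssr1, Dnajb9, Herpud1, Hyou1 and Spcs1 did not overlap either. Groups without overlap were not counted over all genes. These calls rested on few libraries, since the count of 9 fell to between 1 and 6 when any 1 mouse was left out, with a count of 1 without mouse 825 and 2 without mouse 538.

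In parous basal cells 0 of 46 members passed between genotypes, with 11 at an unadjusted p below 0.05, beside 0.906% of all genes. DESeq2 called 2 members and edgeR 0, and limma called 5 without mouse 794. Shares of all genes in these other fits are not given here. Hyou1 was nearest (-1.19, SE 0.28, limma adjusted p = 0.0564). Among Clec2d-high libraries alone, which leaves 4 K8imTmG and only 2 K8iΔRank, 0 members passed, with 1 at an unadjusted p below 0.05, and 0% of all genes. So few libraries could miss real differences.

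**Figure D3:**
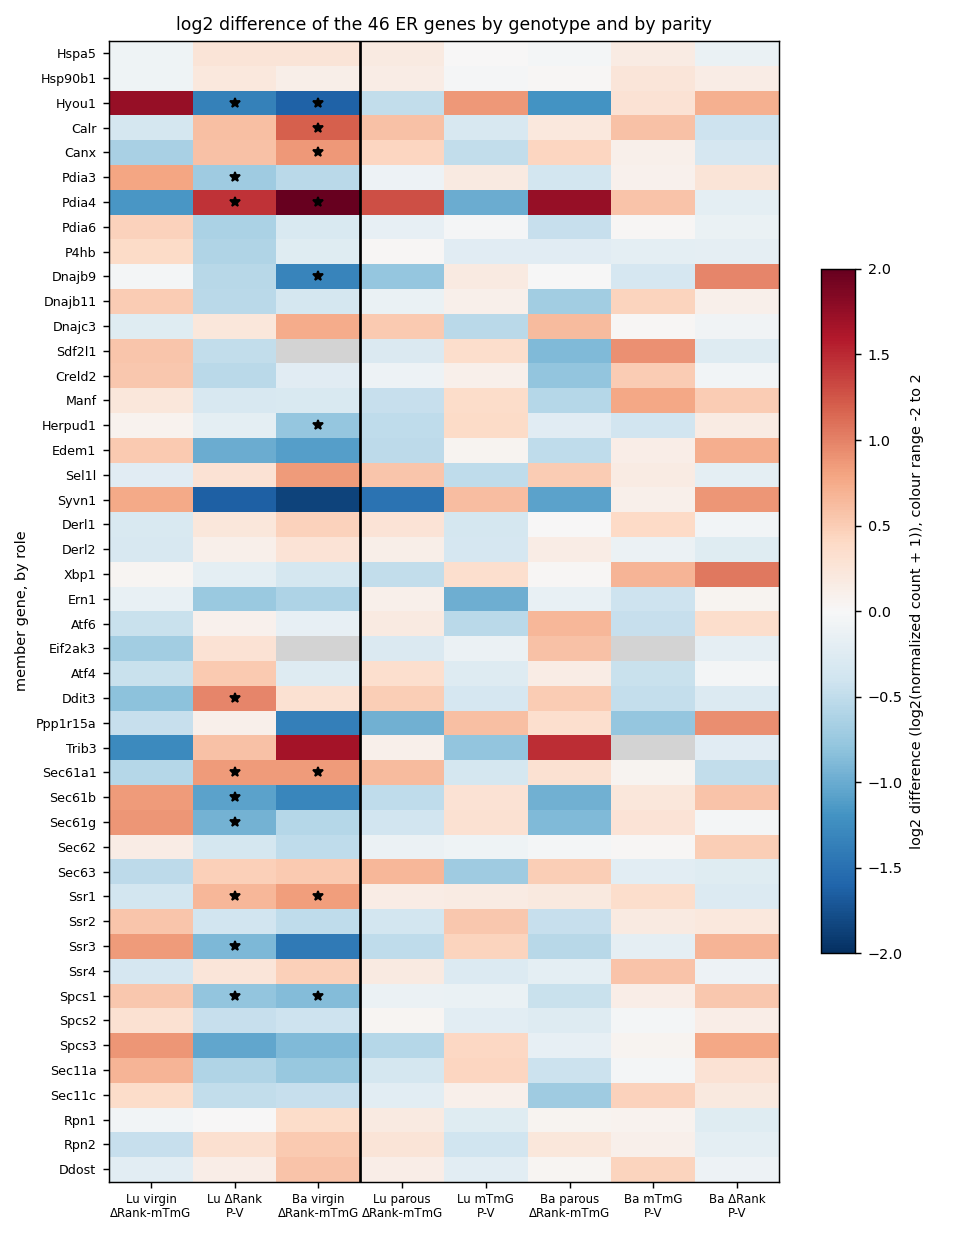
Difference of each member between genotypes (K8iΔRank minus K8imTmG) and between stages (P parous minus V virgin) in luminal (Lu) and basal (Ba) cells, on the log2(normalized count + 1) scale with colours from -2 to 2, stars at an adjusted p below 0.05 and grey where a gene was under the filter. The 3 columns left of the line are those in which the groups coincide with the Clec2d split, and they hold all stars: 10 in luminal K8iΔRank by parity and 9 in virgin basal by genotype.

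The third question was the effect of a past pregnancy. In luminal K8imTmG cells 0 of 46 members passed between parous and virgin mice, with 2 at an unadjusted p below 0.05, beside 2.20% of all genes. DESeq2 called 1 member and 1060 of 10279 genes, and edgeR 0 members and 277 genes. Among Clec2d-low libraries, 3 parous and 3 virgin, 0 members passed, with 6 at an unadjusted p below 0.05, while 12.8% of all genes were called. Hspa5 is an example, at 1829, 1492 and 1764 in virgin and 1055, 1910, 2411, 1595 and 1778 in parous libraries, a range that holds all the virgin values. In basal cells 0 members passed in K8imTmG mice (44 tested, 1 at an unadjusted p below 0.05) and 0 in K8iΔRank mice (46 tested, 2 at an unadjusted p below 0.05), where limma called 0% of all genes in both. DESeq2 called 0 and 1 members and edgeR 0 in both. Among Clec2d-low basal K8iΔRank libraries, only 2 parous and 4 virgin, 0 members passed, with 3 at an unadjusted p below 0.05, beside 0% of all genes. Dnajb9 was nearest in K8iΔRank (0.98, SE 0.23, limma adjusted p = 0.302).

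In luminal K8iΔRank cells, where all virgin libraries are Clec2d-high and all parous ones Clec2d-low, 4 members were higher in parous mice beside 8.25% of all genes, and 6 were lower beside 7.78%. Pdia4 was 50.5, 50.0 and 33.0 in virgin and 126, 175, 77.5 and 125 in parous libraries (1.45, SE 0.28, limma adjusted p = 0.0092). Sec61a1 was 290, 385 and 250 in virgin and 497, 574, 491 and 642 in parous libraries (0.85, SE 0.20, limma adjusted p = 0.0194). Ssr1 was 188, 231 and 254 in virgin and 345, 346, 343 and 378 in parous libraries (0.66, SE 0.18, limma adjusted p = 0.0282). In all 3, as in the other members called here, the groups did not overlap, and this was not counted over all genes. Ddit3, at 17.7, 17.3 and 17.2 in virgin and 48.3, 33.4, 22.9 and 40.7 in parous libraries, was also higher (0.97, SE 0.29, limma adjusted p = 0.0416). Hyou1 was 448, 590 and 478 in virgin and 238, 188, 254 and 129 in parous libraries (-1.36, SE 0.24, limma adjusted p = 0.00673). Sec61b, a small subunit of the channel, was 298, 331 and 239 in virgin and 122, 119, 134 and 171 in parous libraries (-1.08, SE 0.20, limma adjusted p = 0.0078). Sec61g, the other small subunit, was 375, 275 and 334 in virgin and 133, 165, 169 and 214 in parous libraries (-0.95, SE 0.21, limma adjusted p = 0.0145). The 3 channel subunits therefore did not move together, since the pore gene was higher in parous mice where both small subunits were lower. Ssr3 (-0.91, SE 0.22, limma adjusted p = 0.0198), Spcs1 (-0.79, SE 0.20, limma adjusted p = 0.0223) and Pdia3 (-0.71, SE 0.18, limma adjusted p = 0.026) were the other members that were lower. With all 15 luminal libraries in the fit 0 of the 10 passed, and the count was 4 without mouse 821 or mouse 830 and 6 without mouse 787 or mouse 794.

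Hyou1, Pdia4, Sec61a1, Ssr1 and Spcs1 were called both here and between genotypes in virgin basal cells. These 5 are 50.0% of the 10 and 55.6% of the 9, and all had the same direction in both. The share of all genes called in both was not counted, so the overlap is not read as particular to these members. All 9 and all 10 had a sign opposite to their Clec2d-high minus Clec2d-low difference, which is described below. The share of all called genes with such a sign was not counted, so this is not read as particular to the members either. The 2 comparisons share no library, although 3 of the virgin K8iΔRank mice gave a library to each, and in both the group given first is the Clec2d-low one.

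Whether the genotype difference depended on stage was tested as an interaction over the 15 libraries of a lineage. In luminal cells 3 members passed upwards beside 7.17% of all genes and 2 downwards beside 5.75%. They were Pdia4 (2.45, SE 0.65, limma adjusted p = 0.0281), Sec61a1 (1.20, SE 0.33, limma adjusted p = 0.0303), Sec63 (1.18, SE 0.28, limma adjusted p = 0.0187), Hyou1 (-2.23, SE 0.62, limma adjusted p = 0.0321) and Pdia3 (-0.89, SE 0.27, limma adjusted p = 0.0447). With the side of the split as a term 0 members and 0.0487% of all genes passed. That term rests on the 5 parous K8imTmG libraries, 2 high and 3 low, as no other luminal group holds both sides. The fit therefore has little to separate the interaction from the split, and no conclusion is drawn from it. Its estimates came to -0.06 for Pdia4, 0.33 for Sec61a1, 0.56 for Sec63, -0.33 for Hyou1 and -0.60 for Pdia3. The count was also 0 without mouse 538 and without mouse 821, and 10 without mouse 531. In basal cells 0 of 45 members tested passed, with 3 at an unadjusted p below 0.05, and 0% of all genes, and DESeq2 and edgeR called 0 members.

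The members themselves were spread evenly over the Clec2d split, which is described here without a test because it was found in these data. In a fit of the 8 groups and the side, 23 members were above 0 and 23 below it, 11 were more than 0.5 higher in Clec2d-high libraries and 10 more than 0.5 lower, beside 22.3% and 22.7% of all genes. Syvn1 (1.64, SE 0.54), Sec61b (1.11, SE 0.33), Sec61g (1.08, SE 0.20) and Hyou1 (1.04, SE 0.34) were the highest, and Pdia4 (-1.85, SE 0.36), Ddit3 (-1.07, SE 0.31), Calr (-0.99, SE 0.26) and Trib3 (-0.86, SE 0.62) the lowest. Pdia4 lay between 5.43 and 50.473 in the 14 Clec2d-high libraries and between 50.477 and 175 in the 16 Clec2d-low ones, and Sec61a1 between 222 and 385 and between 396 and 642. These 2 members were the only ones of the 46 whose values did not overlap between the sides over all 30 libraries, beside 2.20% of all genes. The 2 groups that hold both sides give the contrast free of lineage, stage and genotype. In parous luminal K8imTmG, Pdia4 was 20.2 and 25.6 in the high and 96.0, 103 and 53.2 in the low libraries, and in parous basal K8iΔRank it was 26.3 and 36.2 in the high and 130 and 111 in the low ones. In both of these groups 11 members were higher in every high library than in every low one and 10 were lower, beside 15.3% and 15.0% of the 11133 genes.

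**Figure D4:**
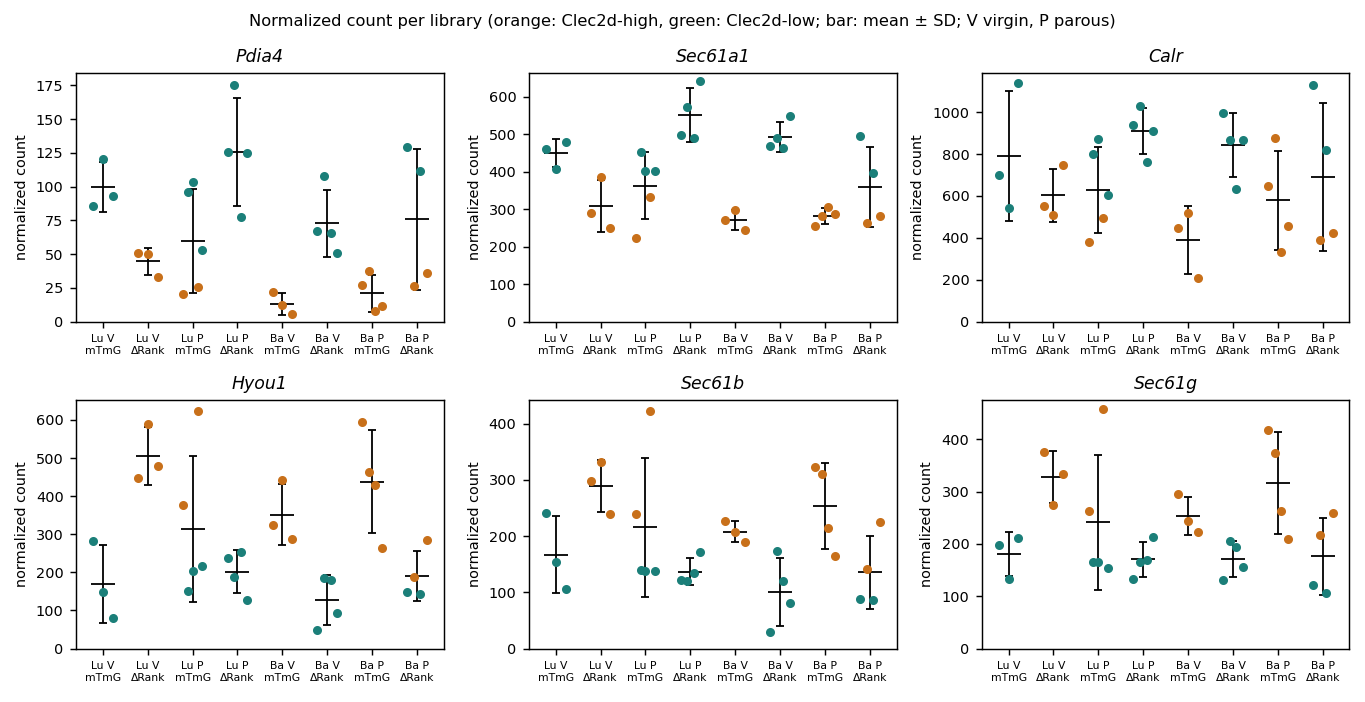
Normalized count (linear axis from 0) of 6 members in each library, by lineage (Lu, Ba), stage (V virgin, P parous) and genotype, with bars for the mean and SD of a group and colour for the side of the Clec2d split. Orange Clec2d-high libraries lie below green Clec2d-low ones for Pdia4 and Sec61a1 in every group that holds both, and above them for Hyou1, Sec61b and Sec61g.

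Beyond the 46 members, 170 of 190 further listed genes of the same pathways were in the table. Between lineages 53 (31.2%) were higher and 25 (14.7%) lower in luminal cells, beside the 28.7% and 27.0% of all genes. Higher in luminal cells were Stc2 (5.03, SE 0.40, limma adjusted p = 8.32e-12), a secreted glycoprotein, Nupr1 (3.46, SE 0.29, limma adjusted p = 1.69e-11), a stress-induced nuclear protein, and Os9 (1.04, SE 0.10, limma adjusted p = 8.97e-10), a lectin of ER-associated degradation. Lower in luminal cells were Selenom (-4.16, SE 0.18, limma adjusted p = 1.26e-17), an ER selenoprotein, Fkbp7 (-3.14, SE 0.19, limma adjusted p = 1.75e-14), a prolyl isomerase of the ER, and Sec24d (-1.79, SE 0.10, limma adjusted p = 9.20e-16), a cargo adaptor of COPII vesicles. By role, 12 of 36 folding genes were higher and 7 lower, 10 of 24 glycan processing and degradation genes were higher and 2 lower, and 5 of 19 sensors, proteases and factors were higher and 4 lower. Of the Atf4 target genes 7 of 19 were higher and 4 lower, of translocation and targeting 5 of 21 and 1, of further oligosaccharyltransferase subunits 2 of 11 and 0, and of ER export and retrieval 12 of 40 and 7. By genotype, Tmed9, a cargo receptor, was the only one called in virgin luminal cells (1.21, SE 0.24, limma adjusted p = 0.0485), and Emc4, of the membrane insertase EMC, the only one in parous basal cells (-1.31, SE 0.28, limma adjusted p = 0.0495). By parity in luminal K8imTmG cells the only one was Ddit4, a stress-induced inhibitor of mTORC1 (-1.13, SE 0.23, limma adjusted p = 0.0397). In the comparisons that coincide with the Clec2d split more were called. In virgin basal cells by genotype 7 (4.17%) were higher and 12 (7.14%) lower of 168, beside 4.27% and 4.72% of all genes. Among them were Sars, a seryl-tRNA synthetase, at 1.60 (SE 0.29, limma adjusted p = 0.013) and Tmem258, of oligosaccharyltransferase, at -1.34 (SE 0.20, limma adjusted p = 0.00861). In luminal K8iΔRank by parity 17 (10.2%) were higher and 21 (12.6%) lower of 167, beside 8.25% and 7.78% of all genes. Prkcsh, the beta subunit of glucosidase II, stood at 1.35 (SE 0.21, limma adjusted p = 0.00392) and Tmed9 at -1.36 (SE 0.18, limma adjusted p = 0.00211). In the luminal interaction 22 (13.1%) were higher and 9 (5.36%) lower of 168, beside 7.17% and 5.75% of all genes. Creb3, a membrane-bound transcription factor, stood at 2.09 (SE 0.36, limma adjusted p = 0.00765) and Ost4, of oligosaccharyltransferase, at -2.49 (SE 0.67, limma adjusted p = 0.0295). In parous luminal cells by genotype, in basal cells by parity and in the basal interaction limma called 0 of the further genes, with 37, 8, 14 and 13 at an unadjusted p below 0.05.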

How the data were processed

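Per the methods and labels, the authors trimmed reads with BBDuk, removed duplicates by unique molecular identifiers with UMI-tools, aligned to GRCm39 with Bowtie2, counted genes of Gencode vM26 and divided counts by DESeq2 size factors. The deposited signal values are these normalized counts per gene and library, kept by the authors where above 10 in at least 25% of samples. All values were whole multiples (tolerance 0.01) of 1 step per library, and 0 columns were left unmapped. Groups were compared with limma 3.58.1 (trend, Benjamini-Hochberg over all genes tested) on log2(normalized count + 1), with genes above 10 in at least 25% of the libraries fitted and 2 groups per fit. Lineage was fitted over all 30 libraries and interactions over the 15 of a lineage. Alternatives were pseudocount 4, no filter, quantile normalization, array quality weights, DESeq2 1.42.0 and edgeR 4.0.16 on recovered reads, the side of the Clec2d split (limit 30) and each mouse left out.

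Luminal and basal libraries with the same mouse number come from the same animal. The deviations of 13 such pairs from their group means correlated with r between -0.238 and 0.341, r was over 0.1 in 6 pairs, and 6 libraries correlated best with their own mouse. Each library is 1 mouse. The members and lists were chosen with earlier results of these data known. Any member could be named, and values per library are given for those with the 3 lowest p per direction in a comparison and for Hspa5, Dnajb9, Herpud1, Sdf2l1, Ddit3, Xbp1 and Atf4. Of the further genes, up to 3 per direction with the lowest adjusted p were eligible. Xbp1 and Hspa5 stand as examples of spread in comparisons without calls, and the genes singled out on the split were chosen after their values were seen. Gene coordinates are those of GENCODE vM39 on GRCm39. The tests were tried on simulated data. The software was R 4.3.3 with Python 3.11.15.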

Additional observations from a re-analysis of the deposited data

Results flagged for a closer look

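Of 230 sets of one member in one group of 4 or 5 libraries, 8 held a library whose gap to the rest passed Dixon's 95% limit, and chance gives about 1 in 20, or 11.5. In basal virgin K8iΔRank these were Pdia6 at 256 in mouse 820 and Sdf2l1 at 14.2 in mouse 822. In basal parous K8imTmG it was Sel1l at 177 in mouse 558. In luminal parous K8iΔRank they were Atf4 at 829 in mouse 798, Ssr1 at 378 in mouse 830 and Sec11c at 110 in mouse 787, and in luminal parous K8imTmG they were Trib3 at 5.04 and Rpn1 at 301, both in mouse 494.

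In the limma interaction of genotype and stage in luminal cells, 3 members (6.52%) passed upwards and 2 (4.35%) downwards. Over all genes the shares were 7.17% and 5.75%. The estimates were 2.45 for Pdia4, 1.20 for Sec61a1, 1.18 for Sec63, -2.23 for Hyou1 and -0.89 for Pdia3. None of these 5 members passed with the side of the Clec2d split as a term, beside 0.0487% of all genes. The split coincides with the virgin genotype groups, and no conclusion is drawn.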

How the results depend on the processing

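The count of members called between lineages stayed between 19 and 27 under every alternative run and between 22 and 27 with any 1 mouse left out. With the mouse as a replicate block it was 26, as without the block, and the same 26 members were called. In the other comparisons array quality weights called 14 members in virgin luminal and 4 in parous luminal cells by genotype, 13 in luminal K8imTmG by parity, 17 in parous basal cells by genotype and 16 in the luminal interaction. DESeq2 called 3, 1, 1, 2 and 11 in these same comparisons, and 16 in luminal K8iΔRank and 1 in basal K8iΔRank by parity. Over all genes, array quality weights called 2514 of 10066 in virgin and 1147 of 10090 in parous luminal cells by genotype. They called 3993 of 10279 in luminal K8imTmG by parity and 2671 of 10262 in the luminal interaction. DESeq2 called 648, 611, 1060 and 1990 of these genes in the same order, and 1857 of 10249 in luminal K8iΔRank by parity. All-gene counts of these alternatives are not given for the basal comparisons. The member counts there are therefore not read as particular to the members. The fit of all 15 libraries called 1 in luminal K8imTmG and 0 in luminal K8iΔRank by parity, quantile normalization called 8 in the luminal interaction, and pseudocount 4 called 1 in parous basal cells. With 1 mouse left out the counts were 0 to 1 in virgin luminal cells (1 without mouse 531), 0 to 5 in parous basal cells (1 without mouse 558), 4 to 10 in luminal K8iΔRank by parity, 0 to 10 in the luminal interaction (1 without mouse 794 or 830, 2 without 533 or 825 and 3 without 822) and 1 to 6 in virgin basal cells (3 without mouse 531, 568 or 820 and 4 without 822). With the side of the split as a term the luminal interaction called 0 and that of Pdia4 turned from 2.45 to -0.055. The cause of these changes was not tested. Low members such as Trib3, Eif2ak3, Spcs3 and Pdia4 lay at or under 3 reads in 5, 6, 4 and 3 of 15 basal libraries, where small differences were not detectable. The same held for Sdf2l1 in the basal libraries of mice 538, 568 and 557.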
